A study of Mus musculus with 6 samples.

Results

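The genes described here are 8 transcription factors of the epithelial-mesenchymal transition (EMT), Snai1, Snai2, Twist1, Twist2, Zeb1, Zeb2, Prrx1 and Prrx2, together with 2 products of mesenchymal cells, Vim and Fn1. They were chosen by name, with earlier results of these data known, and all 10 were found among the 17312 genes of the table. RNA had been sequenced from 6 mouse leg tumors, 3 carrying a Cre-inducible SS18-SSX1 allele and 3 carrying a Cre-inducible SS18-SSX2 allele. SS18-SSX is the fusion oncoprotein of synovial sarcoma, a soft tissue tumor, and joins a BAF chromatin remodelling subunit to part of an SSX protein. In every mouse TATCre, a Cre protein that enters cells, had been injected into the soft tissue over the shin, and tumors were collected about 1 year later without treatment. Cre came as an injected protein, so no promoter defines which cells recombined. Strain, age and sex are not given in the labels, and whether each tumor came from its own mouse is not said. P-values thus cover the spread among the samples at hand, which may be technical. No normal tissue was in the comparison. Values are FPKM, fragment counts scaled to gene length and library size, so levels of different genes can be set side by side.

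EMT is a program in which epithelial cells lose their junctions and gain the shape, matrix and motility of mesenchymal cells. Snail factors (Snai1 and Snai2) and Zeb factors (Zeb1 and Zeb2) are zinc finger repressors that bind E2-box sequences in the promoters of epithelial genes such as Cdh1. Twist factors are bHLH proteins that pair with E proteins, and Prrx factors are homeobox proteins of limb and craniofacial mesenchyme. Vim encodes vimentin, the intermediate filament of mesenchymal cells, and Fn1 encodes fibronectin, a matrix glycoprotein. Mesenchymal cells, the embryonic limb and many stromal cells express these genes without any epithelial origin. Synovial sarcoma is known for a spindle cell form and a biphasic form with epithelial glands.

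RefSeq starts on GRCm38.p6 were available for 7 of the 10 genes, all but Snai2, Zeb1 and Fn1, with 10 windows of 250 bases upstream of a start. Zeb2 had more than 1 window, and some of these overlapped. The E2-box was searched as CAGGTG or its reverse complement CACCTG. It was present in 17.2% of all 32851 windows of that length, and in 1 of the 10 windows of these genes, that of Snai1, where its first base lies at position -126 from the start. The sequences of Snai1, which holds the box, and of the paralogs Twist1 and Twist2, whose levels ranged very differently, are given for the 150 bases before the start, with the E2-box in capitals. Both Twist stretches hold no such box in this window. Snai1 is at chr2:167538045-167538194, Twist1 at chr12:33957521-33957670 and Twist2 at chr1:91801311-91801460, all on the plus strand.
Snai1: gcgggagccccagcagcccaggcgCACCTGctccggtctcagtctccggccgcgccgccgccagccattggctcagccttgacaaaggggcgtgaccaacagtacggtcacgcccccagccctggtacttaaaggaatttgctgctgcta
Twist1: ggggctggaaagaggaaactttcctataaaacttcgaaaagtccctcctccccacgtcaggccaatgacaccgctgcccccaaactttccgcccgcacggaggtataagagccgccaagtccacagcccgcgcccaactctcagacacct
Twist2: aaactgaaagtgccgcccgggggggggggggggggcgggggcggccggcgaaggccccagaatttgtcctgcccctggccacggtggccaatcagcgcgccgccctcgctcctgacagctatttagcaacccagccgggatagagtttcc

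Depth and cell content differed between the tumors, and the values below stand beside that. The steps between low values put between 7285853 reads (SS18-SSX2 tumor 2) and 17546227 reads (SS18-SSX1 tumor 3) behind a library. The 11 skeletal muscle fibre markers summed to 11003 FPKM (SS18-SSX1 tumor 2) and 4837 FPKM (SS18-SSX2 tumor 2), against 106 to 459 FPKM in the other 4 tumors. The 8 mast cell markers summed to 2519 FPKM in SS18-SSX1 tumor 3 and to 13.8 to 99.4 FPKM elsewhere. All 8 had log2 fold changes below 0, with a median of -2.68. Of them 3 (Mcpt4, Cma1 and Hdc) did not overlap between the genotypes, being lower with SS18-SSX2. The sums were 99.4, 64.9 and 2519 FPKM with SS18-SSX1 (tumors 1, 2 and 3) and 30.9, 63.8 and 13.8 FPKM with SS18-SSX2. Snai2 had 9.84, 14.8 and 11.4 FPKM with SS18-SSX1 and 5.02, 2.09 and 5.32 FPKM with SS18-SSX2 in the same order. None of the 8 was called, and their part in the Snai2 values was not tested. Tle1, a marker used for synovial sarcoma and chosen after its values were seen, was present in all 6 tumors. It had 23.3 to 25.7 FPKM with SS18-SSX1 and 29.8 to 37.0 FPKM with SS18-SSX2, without overlap (limma adjusted p = 0.997). Of the other listed markers of this tumor, Bcl2 and Fzd10, which had the highest mean, overlapped. Sox2 was lower with SS18-SSX2, without overlap (limma adjusted p = 0.681). The Y-linked gene Ddx3y stood at 28.2 to 35.2 FPKM with SS18-SSX1 against at most 0.0148 FPKM under SS18-SSX2. The sex-linked gene Xist went the other way, at 3.58 to 7.03 FPKM with SS18-SSX1 and 56.3 to 175 FPKM with SS18-SSX2. Genotype and sex, as read from these genes, thus cannot be told apart in any result. In these bulk samples fewer cells of a type and less RNA per cell cannot be told apart either.

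All 10 genes were expressed, at levels that spread from vimentin and fibronectin at the top to Snai1 at the bottom. By the median over the 6 tumors the order was Vim (244 FPKM), Fn1 (97.0), Twist1 (80.8), Prrx1 (25.6), Zeb1 (9.52), Prrx2 (7.83), Snai2 (7.58), Twist2 (6.31), Zeb2 (3.60) and Snai1 (1.82). Vim stood above Fn1 in 5 of 6 tumors, Twist1 above Prrx1 in all 6 and Prrx1 above Zeb1 in all 6. Fn1 and Twist1 were not separated, with Fn1 higher in 3 of 6 tumors, nor were Zeb1 and Prrx2 (3 of 6), Prrx2 and Snai2 (3 of 6) or Snai2 and Twist2 (Snai2 higher in 2 of 6). Twist2 exceeded Zeb2 in 4 of 6 tumors and Zeb2 exceeded Snai1 in 5 of 6. Twist1 and Prrx1 together made up 59.8% to 80.0% of the summed FPKM of the 8 transcription factors in a tumor.

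**Figure D1:**
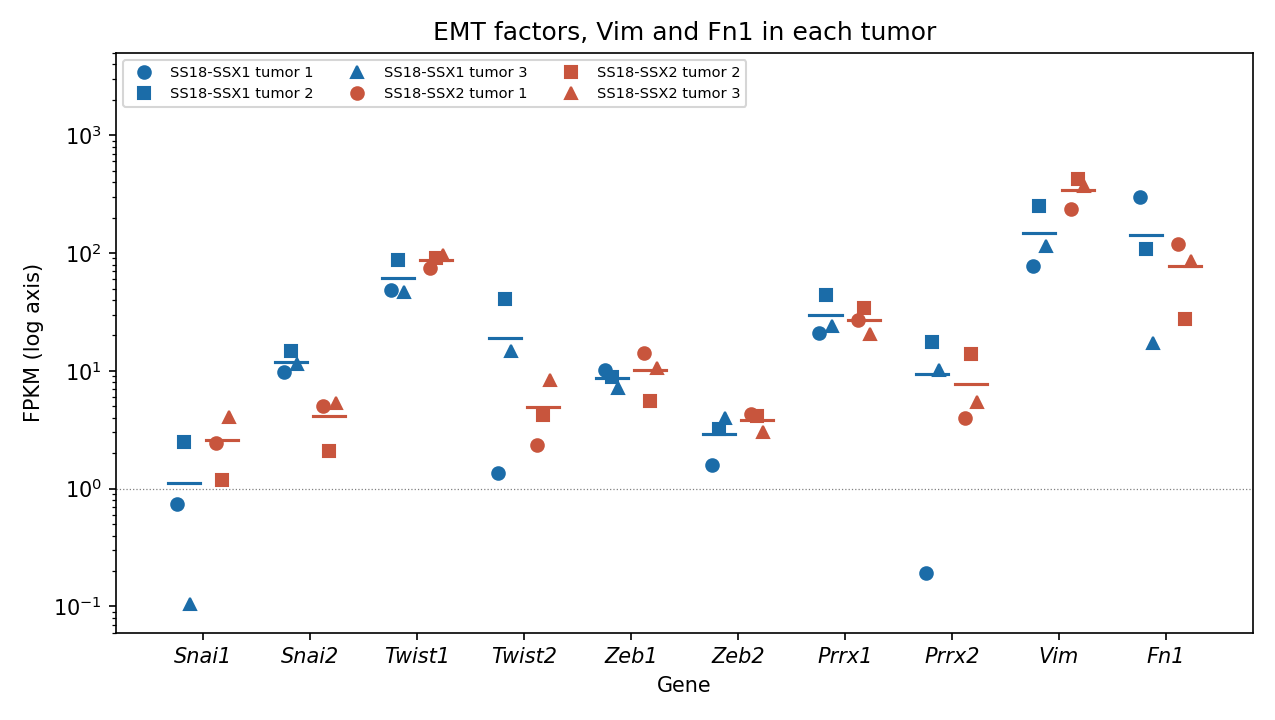
FPKM of the 10 genes on a log axis, with 1 point per tumor (blue for SS18-SSX1, red for SS18-SSX2, shape for the tumor number), bars for the mean of 3 tumors and a dotted line at 1 FPKM. Snai2 has all 3 SS18-SSX2 points below all 3 SS18-SSX1 points, while for the other 9 genes the genotypes overlap.

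Between the genotypes no gene of the set passed the test over all genes. All 10 had at least 1 FPKM in 3 or more tumors and were tested with limma on log2(FPKM + 1), which shrinks the change of low genes, as SS18-SSX2 minus SS18-SSX1. With the Benjamini-Hochberg adjusted p threshold of 0.05, 0 of the 10 were called and 2 had an unadjusted p under 0.05, Snai2 and Vim. Among all 13873 tested genes 9 were called (0.0649%), 6 of them higher (0.0432%) and 3 lower (0.0216%) in SS18-SSX2 tumors. Those splits were 3 higher and 3 lower with quantile normalization and 3 higher and 4 lower after rescaling to TPM. An unadjusted p under 0.05 was found for 4.97% of all tested genes. The genotypes did not overlap for 1 of the 10 genes, Snai2, against 8.72% of all tested genes (4.97% higher and 3.76% lower in SS18-SSX2 tumors). The median log2 fold change was 0.21 over the 10 genes, 6 above 0 and 4 below, and 0.01 over all tested genes, of which 51.1% were above 0. A change of at least 1 on the log2 scale was seen for 3 of the 10 (Snai2, Twist2 and Vim), against 5.48% of all tested genes.

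**Figure D2:**
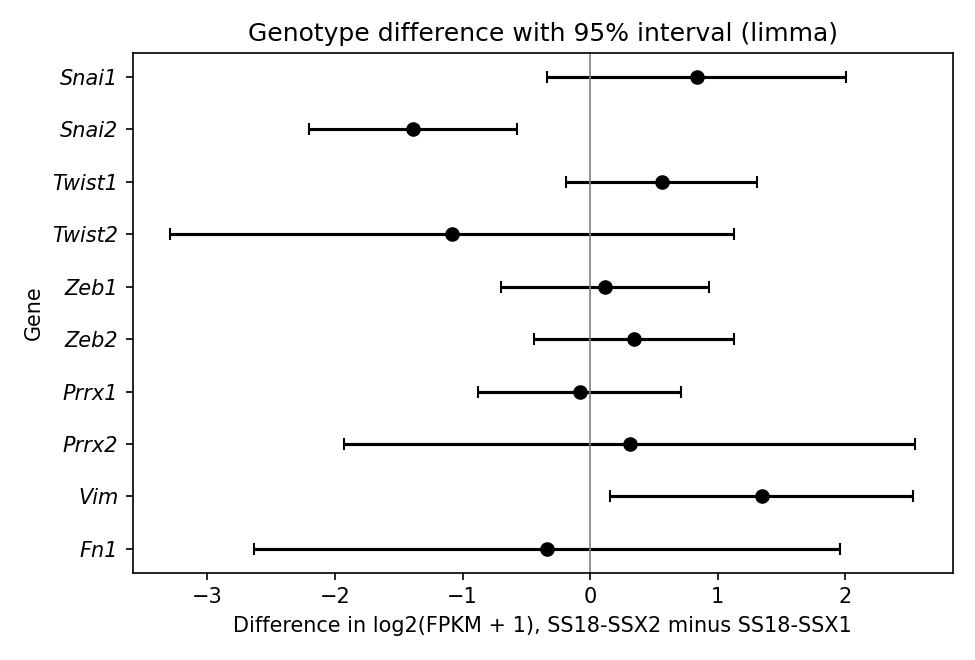
Difference in mean log2(FPKM + 1) between the genotypes (SS18-SSX2 minus SS18-SSX1) for each gene, with its 95% interval from limma, unadjusted for the number of genes. Only the intervals of Snai2 (-2.21 to -0.57) and Vim (0.16 to 2.53) lie to 1 side of 0, and those of Twist2, Prrx2 and Fn1 are the widest.

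The means of the Snail genes differed in opposite directions, Snai2 without overlap and Snai1 with it. On GRCm38 Snai2 lies at chr16:14705852-14709385 and Snai1 at chr2:167538195-167542814, both on the plus strand. Snai2, or Slug, which marks migrating neural crest and mesenchyme, had 9.84, 14.8 and 11.4 FPKM with SS18-SSX1 (tumors 1, 2 and 3) and 5.02, 2.09 and 5.32 FPKM with SS18-SSX2. The lowest SS18-SSX1 tumor lay above the highest SS18-SSX2 tumor. The means were 11.99 ± 2.53 and 4.14 ± 1.78 FPKM (SD, n = 3), a ratio of 2.89, and the log2 fold change was -1.39 with SE 0.35 (limma, unadjusted p = 0.0045, adjusted p = 0.592). The unadjusted p ranked 106 among 13873 genes. Over the 18 alternative settings the Snai2 fold change stayed below 0, from -1.60 to -0.91, and the adjusted p ran from 0.435 to 0.99997. The value of -0.91 was that without the muscle-rich tumor 2 of both genotypes. With muscle marker level as a covariate the Snai2 log2 fold change was -1.46.

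Snai1, or Snail, a short-lived repressor of Cdh1, was low and its values overlapped. It had 0.741, 2.51 and 0.105 FPKM with SS18-SSX1 (tumors 1, 2 and 3) and 2.46, 1.19 and 4.08 FPKM with SS18-SSX2. SS18-SSX1 tumor 3 was the lowest, and SS18-SSX2 tumor 3 was the highest. Recovered reads were 16, 56 and 3 with SS18-SSX1 and 58, 14 and 95 with SS18-SSX2, so the 3 reads of SS18-SSX1 tumor 3 allow 0.0218 to 0.308 FPKM (95% exact Poisson interval, for counting error only). The means were 1.12 ± 1.25 and 2.58 ± 1.45 FPKM (SD, n = 3), and the log2 fold change was 0.84 with SE 0.51 (limma, adjusted p = 0.997). Leaving out SS18-SSX1 tumor 3 gave 0.45 and leaving out SS18-SSX1 tumor 2 gave 1.28. A pseudocount of 0.1 gave 1.64, and leaving out tumor 2 of both genotypes gave 1.60. Voom on recovered reads gave 2.078 with annotated lengths. It gave 2.079 with lengths of any source, a setting added after seeing the data. The limma adjusted p was 0.338 or more in every setting. The Snai1 interval ran from -0.33 to 2.01, so no difference was detected. The spread between SS18-SSX1 tumors 2 and 3 exceeded counting error, since tumor 2 had an exact Poisson interval of 1.90 to 3.26 FPKM.

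The ratio between the Snail genes did not overlap between the genotypes. The ratio of Snai2 to Snai1 was 13.3, 5.89 and 108 with SS18-SSX1 (tumors 1, 2 and 3) and 2.04, 1.77 and 1.30 with SS18-SSX2, above 1 in all 6. The mean log2 ratio was 4.35 ± 2.16 and 0.74 ± 0.33 (SD, n = 3), without overlap. The exact permutation test (two-sided) gave p = 0.1, the smallest that 3 tumors against 3 allow, and 0.4 adjusted over the 4 family ratios tested. The ratios of Twist1 to Twist2, Zeb1 to Zeb2 and Prrx1 to Prrx2 gave exact permutation p of 0.4, 0.6 and 0.9 (0.8, 0.8 and 0.9 adjusted). These ratios were examined after their values were seen, and the 108 rests on 3 reads of Snai1. Snai2, the numerator, itself did not overlap, so the split of this ratio is not separate from that of Snai2.

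**Figure D3:**
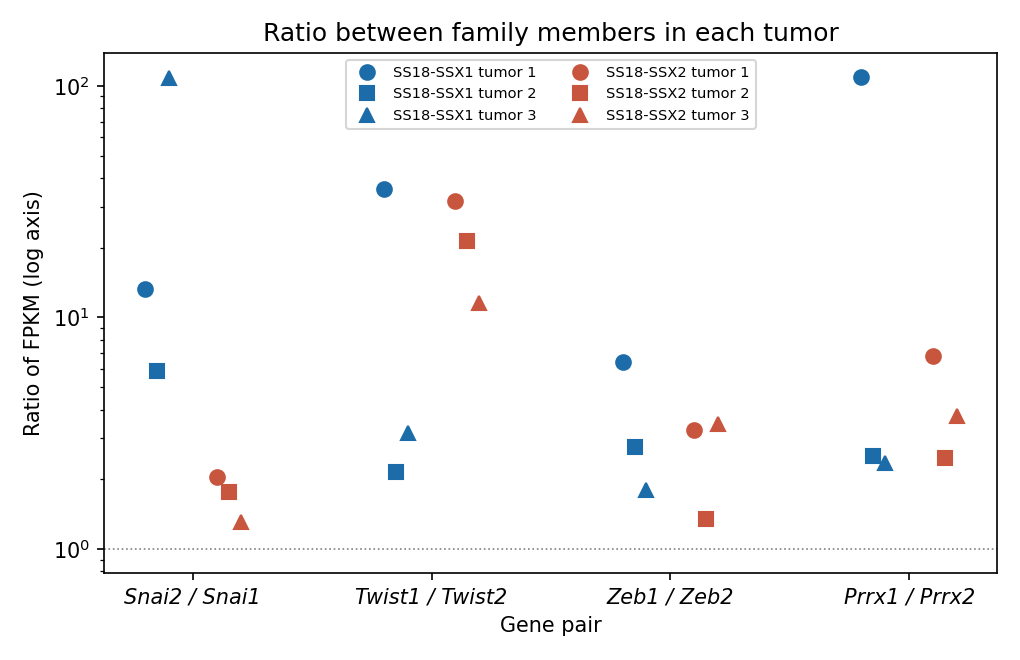
Ratio of FPKM between the members of each family on a log axis, 1 point per tumor (blue for SS18-SSX1, red for SS18-SSX2) and a dotted line at 1. The Snai2 to Snai1 ratio is 5.89 or more in the SS18-SSX1 tumors and 2.04 or less in the SS18-SSX2 tumors, and the other 3 ratios overlap.

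Twist1 was the most abundant transcription factor of the set, and its paralog Twist2 ranged widely between tumors. Twist1 lies at chr12:33957671-33959829 and Twist2 at chr1:91801461-91848028, both on the plus strand. Twist1, which keeps limb and craniofacial mesenchyme undifferentiated, had 48.8, 87.1 and 46.7 FPKM with SS18-SSX1 (tumors 1, 2 and 3) and 74.4, 90.2 and 96.5 FPKM with SS18-SSX2. Tumors 1 and 3 of SS18-SSX1 were lower than the other 4, and SS18-SSX1 tumor 2 fell within the SS18-SSX2 range. In each tumor Twist1 ranked between the 92.6th and the 98.1st percentile of all genes. Its means were 60.9 ± 22.7 and 87.0 ± 11.4 FPKM (SD, n = 3), and the difference on the log2 scale was 0.56 (SE 0.32, limma, adjusted p = 0.997). The Twist1 interval ran from -0.19 to 1.31 on that scale, and the value was 0.84 without SS18-SSX1 tumor 2 and 0.40 without SS18-SSX1 tumor 3. The highest tumor exceeded the lowest 2.07-fold.

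Twist2, or Dermo1, a factor of dermis and bone precursors, had 1.36, 40.6 and 14.8 FPKM with SS18-SSX1 (tumors 1, 2 and 3) and 2.33, 4.23 and 8.39 FPKM with SS18-SSX2. SS18-SSX1 tumors held both the lowest and the highest value, 29.9-fold apart. The means were 18.9 ± 19.9 and 4.98 ± 3.10 FPKM (SD, n = 3), and the log2 fold change of -1.08 with SE 0.95 did not pass (limma, adjusted p = 0.997). Leaving out SS18-SSX1 tumor 1 moved Twist2 to -2.23, leaving out SS18-SSX1 tumor 2 to -0.16, leaving out SS18-SSX2 tumor 1 to -0.72 and leaving out tumor 2 of both genotypes to -0.13. Over all tested genes 2.083% had a larger SD across the 6 tumors than Twist2 (1.53 on the log2 scale). Twist1 exceeded Twist2 36.0-fold in SS18-SSX1 tumor 1 and 2.15-fold in SS18-SSX1 tumor 2. The annotated exons of Twist2 share 1477 bases with the antisense gene Gm29100, and the sources used here do not give the strand handling, so reads of both cannot be told apart.

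The Zeb genes were present at low to moderate levels and overlapped between the genotypes. Zeb1 lies at chr18:5591860-5775467 on the plus strand and Zeb2 at chr2:44983632-45117395 on the minus strand. Zeb1, a repressor of Cdh1 and of microRNAs that in turn target Zeb RNAs, had 10.2, 8.85 and 7.18 FPKM with SS18-SSX1 (tumors 1, 2 and 3) and 14.1, 5.59 and 10.6 FPKM with SS18-SSX2. The SS18-SSX2 tumors enclosed the SS18-SSX1 values. Zeb2, a SMAD-binding paralog, had 1.58, 3.22 and 3.99 FPKM with SS18-SSX1 against 4.34, 4.15 and 3.05 FPKM under SS18-SSX2 in the same order. The lowest was SS18-SSX1 tumor 1, and the other 5 lay within 3.05 to 4.34 FPKM. Means were 8.74 ± 1.504 and 10.1 ± 4.28 FPKM for Zeb1 and 2.93 ± 1.23 and 3.85 ± 0.699 FPKM for Zeb2 (SD, n = 3). The log2 fold changes were 0.12 (95% interval -0.70 to 0.93) for Zeb1 and 0.35 (-0.44 to 1.13) for Zeb2, each with limma adjusted p = 0.997. The Zeb2 value was 0.07 without SS18-SSX1 tumor 1, and Zeb1 turned below 0 without SS18-SSX1 tumor 3 (-0.0011) or SS18-SSX2 tumor 1 (-0.15). Zeb1 exceeded Zeb2 in all 6 tumors, by 1.35-fold in SS18-SSX2 tumor 2 to 6.44-fold in SS18-SSX1 tumor 1. Zeb2 shares 653 exon bases with its antisense gene Zeb2os, listed at 0 to 1.36 FPKM.

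Prrx1 ranged less between tumors than Prrx2, and Prrx2 had only 5 reads in 1 of them. Prrx1 lies at chr1:163245119-163313710 on the minus strand and Prrx2 at chr2:30834972-30881251 on the plus strand. Prrx1, a homeobox factor of limb bud mesenchyme, had 21.1, 44.1 and 24.1 FPKM with SS18-SSX1 (tumors 1, 2 and 3) and 27.1, 34.2 and 20.4 FPKM with SS18-SSX2. The 2 muscle-rich tumors, tumor 2 of each genotype, were the highest of their genotype for Prrx1. Prrx2, its paralog with a partly shared role in limb growth, had 0.192, 17.6 and 10.2 FPKM with SS18-SSX1 against 3.99, 13.8 and 5.43 FPKM under SS18-SSX2 in the same order. SS18-SSX1 tumor 1 stood apart, with 5 reads and an exact Poisson interval of 0.0625 to 0.449 FPKM, and the tumor 2 of each genotype was again the highest. The highest Prrx2 value was 91.3-fold the lowest, against 2.16-fold for Prrx1. Means were 29.8 ± 12.5 and 27.2 ± 6.90 FPKM for Prrx1 and 9.33 ± 8.72 and 7.73 ± 5.29 FPKM for Prrx2 (SD, n = 3). The log2 fold changes of -0.08 (95% interval -0.88 to 0.72) and 0.31 (-1.93 to 2.55) had limma adjusted p = 0.997 each. With muscle marker level as a covariate the values were 0.099 for Prrx1 and 0.79 for Prrx2. Prrx1 turned to 0.23 without SS18-SSX1 tumor 2 and to 0.11 without SS18-SSX2 tumor 3. Prrx2 turned to -0.89 without SS18-SSX1 tumor 1 and to -0.15 without SS18-SSX2 tumor 2.

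Vim was the most abundant gene of the set, and its mean was higher in SS18-SSX2 tumors without passing the test. It lies at chr2:13573927-13582826 on the plus strand. Vim had 77.2, 250 and 116 FPKM with SS18-SSX1 (tumors 1, 2 and 3) and 238, 424 and 371 FPKM with SS18-SSX2. Only SS18-SSX1 tumor 2 reached into the SS18-SSX2 range, above SS18-SSX2 tumor 1. The means were 148 ± 90.5 and 344 ± 96.0 FPKM (SD, n = 3), a ratio of 2.33. The log2 fold change was 1.35 with SE 0.51 (limma, unadjusted p = 0.0310, adjusted p = 0.895), and it ranked 480 among 13873 genes. Over the 18 alternative settings the Vim value ran from 0.97 (without SS18-SSX1 tumor 1) to 1.81 (without SS18-SSX1 tumor 2), with adjusted p from 0.441 to 0.99997. In every tumor Vim ranked at or above the 97.9th percentile of all genes.

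Fn1 varied 17.6-fold between tumors, and its genotypes overlapped. It lies at chr1:71585520-71653200 on the minus strand. Fn1 had 302, 108 and 17.2 FPKM with SS18-SSX1 (tumors 1, 2 and 3) and 119, 27.3 and 86.3 FPKM with SS18-SSX2. SS18-SSX1 tumors held both extremes, and SS18-SSX1 tumor 1, with the most Fn1, had the least Vim. The means were 142 ± 146 and 77.6 ± 46.6 FPKM (SD, n = 3). The log2 fold change was -0.34 with SE 0.99 (limma, adjusted p = 0.997), with an interval of -2.64 to 1.96. It was -1.44 without SS18-SSX1 tumor 3 and turned to 0.58 without SS18-SSX1 tumor 1 and to 0.28 without SS18-SSX2 tumor 2. The antisense gene Apol7d shares 292 exon bases with Fn1 and had at most 1.22 FPKM.

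The extremes of the set lay in different tumors for different genes. SS18-SSX1 tumor 1 had the lowest value of 4 genes (Twist2, Zeb2, Prrx2 and Vim) and the highest of Fn1. SS18-SSX1 tumor 2 had the highest value of 4 genes (Snai2, Twist2, Prrx1 and Prrx2), and SS18-SSX1 tumor 3 the lowest of 3 (Snai1, Twist1 and Fn1). The SD across the 6 tumors exceeded the median over all tested genes (0.41 on the log2 scale) for 9 of the 10, Zeb2 being the exception.

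Cell type markers moved beside some of these values. In SS18-SSX1 tumor 1 the 9 resident fibroblast markers summed to 137 FPKM, against 212 to 368 FPKM in the other 5 tumors, and Pi16 and Clec3b were at 0 in at least 1 tumor. Dcn, the fibroblast marker with the highest mean, had 6.27 FPKM there and 84.9 to 138 FPKM elsewhere, and accounts for most of the lower sum. Dpt, Lum, Smoc2, Pi16 and Dpp4 were also lowest in that tumor, but Pdgfra (76.2 FPKM against 57.7 to 82.1 elsewhere) and Cd34 (31.2 against 9.32 to 36.4) were not. The 11 macrophage and monocyte markers were all detected in all tumors. Their sums were 50.0, 359 and 390 FPKM with SS18-SSX1 (tumors 1, 2 and 3) and 148, 630 and 162 FPKM with SS18-SSX2, lowest where Prrx2 and Vim were lowest. The 8 endothelial markers summed to 31.6 to 94.0 FPKM with SS18-SSX1 against 44.7 to 123 FPKM under SS18-SSX2, and the 7 pericyte and smooth muscle markers to 43.5 to 89.6 and 80.1 to 141 FPKM. All 7 of the latter had fold changes above 0. Their sums were 89.6, 43.5 and 52.2 FPKM with SS18-SSX1 (tumors 1, 2 and 3) and 141, 80.1 and 96.8 FPKM with SS18-SSX2. In each genotype the sum was highest in tumor 1, where Vim was lowest, and Rgs5 made up most of it there. Myh11 was also highest in tumor 1 of both genotypes, but Cspg4, Cnn1, Tagln, Notch3 and Acta2 were not. Tagln had its lowest and highest values in the same tumors as Vim, SS18-SSX1 tumor 1 (1.94 FPKM) and SS18-SSX2 tumor 2 (20.1 FPKM). These markers were named after their values were seen. Rgs5, the marker of this list with the highest mean, overlapped, at 9.93 to 59.0 and 20.3 to 78.0 FPKM. Acta2, smooth muscle actin and chosen after its values were seen, was called as higher in SS18-SSX2 tumors, with 4.09 ± 0.874 and 23.6 ± 4.37 FPKM (SD, n = 3, limma adjusted p = 0.0474). The part of these cells in the levels of Vim, Fn1, Twist2 and the Prrx genes was not tested. Markers of Schwann cells summed to at most 2.55 FPKM and those of keratinocytes to at most 3.19 FPKM. Lymphocyte and plasma cell markers reached 734 FPKM in SS18-SSX2 tumor 2, where Igkc had 671 FPKM, and adipocyte markers reached 72.7 FPKM in SS18-SSX1 tumor 3.

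**Figure D4:**
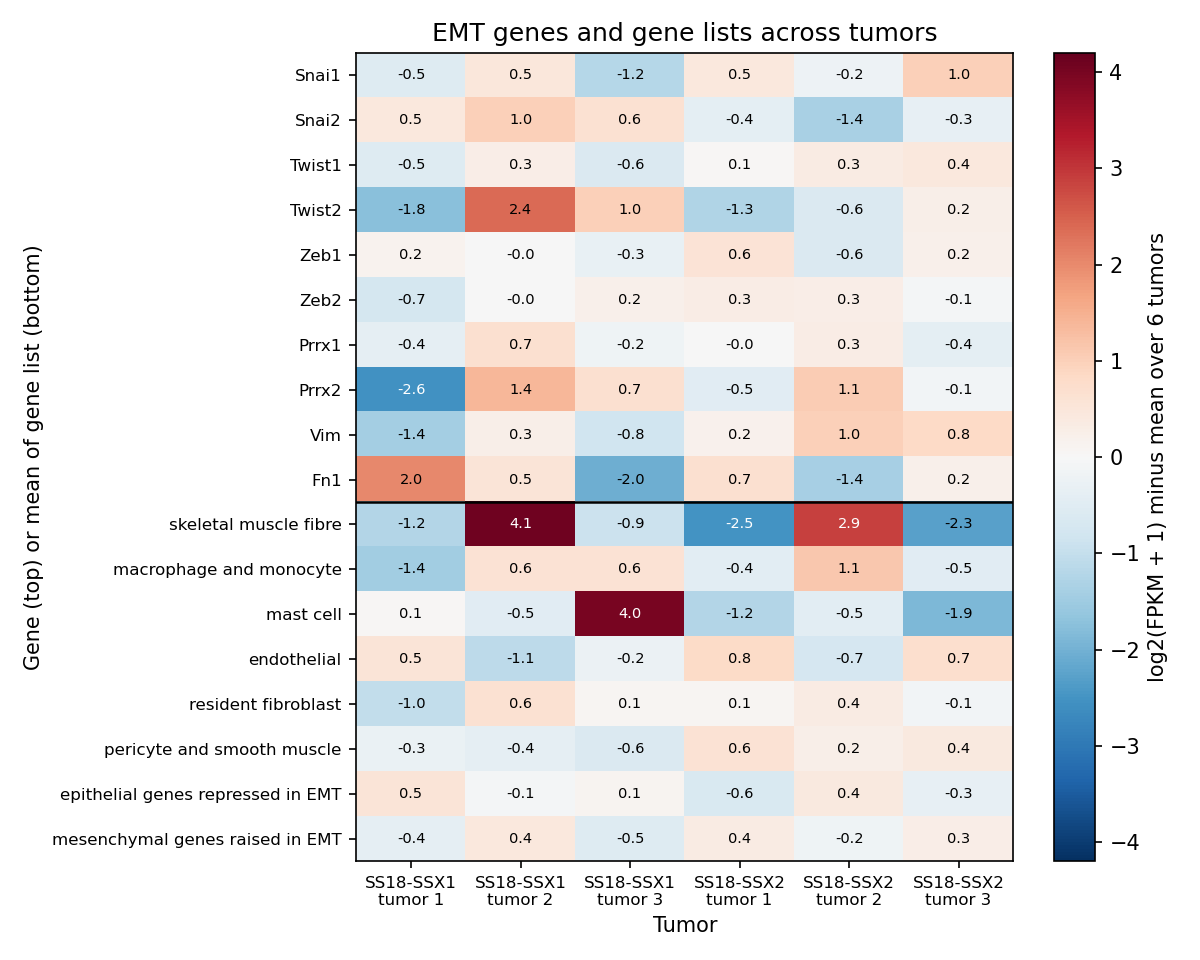
Each row gives log2(FPKM + 1) of a gene, or the mean over a gene list, minus its own mean over the 6 tumors, with blue below and red above that mean. The 10 genes are above the line, and marker and EMT lists below it. SS18-SSX1 tumor 1 is blue for Twist2, Prrx2, Vim, macrophage and fibroblast rows and red for Fn1.

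Genes with the most similar course across the 6 tumors were found by the root mean square difference between centred log2(FPKM + 1) values, among 10016 tested genes with a mean of at least 5 FPKM. These matches over 6 tumors are a description. Snai2 was nearest to Sox2, a neural and stem cell factor (0.23 log2 units), then Gdf10 (0.30) and Daam2 (0.32). Sox2 had 40.7, 38.5 and 31.1 FPKM with SS18-SSX1 against 20.1, 9.55 and 21.3 FPKM under SS18-SSX2 (limma adjusted p = 0.681). Those values did not overlap either, but Sox2 was picked here for its likeness to Snai2, so this is no separate result. Snai1 was nearest to Rgs16 (0.15), Hist1h1t (0.16) and Mycn (0.23). Vim was nearest to Axin2, a target and inhibitor of Wnt/beta-catenin signaling (0.24), Atf5 (0.27) and Anxa2 (0.27). Prrx2 was nearest to the complement gene C1qb of macrophages (0.37), S100a10 (0.38) and C1qa (0.39). Fn1 was nearest to the limb patterning gene Hoxa13 (0.33), and Gm15961 (0.37) was also among its 3 nearest. Twist2 had no close match, the nearest being Tsc22d3 at 0.61.

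The genes around the set were read from 9 lists of 119 genes in all, of which 105 were tested. None was called by limma at an adjusted p under 0.05, and 13 had an unadjusted p under 0.05. The genotypes did not overlap for 14 of the 105 (13.3%), 9 higher and 5 lower in SS18-SSX2 tumors, against 8.72% of all tested genes. The lists were chosen with earlier results of these data known, so this share is no independent result. The median log2 fold change of the 105 genes was 0.0067. Calls were 0.0649% of all tested genes.

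Among inducers and other factors single genes stood out by unadjusted p alone. The 10 TGF-beta genes are ligands, receptors and SMADs of a pathway that induces EMT, with the inhibitor Smad7 among them. They had a median log2 fold change of 0.03, with 6 above 0 and 4 below. Tgfb2 had 18.2 ± 9.06 FPKM with SS18-SSX1 against 35.7 ± 6.45 FPKM under SS18-SSX2 (SD, n = 3, limma adjusted p = 0.936). The inhibitory SMAD gene Smad7 had 10.7 ± 1.44 and 16.4 ± 2.25 FPKM (limma adjusted p = 0.990). Of 15 other EMT transcription factors 11 were tested, 4 above 0 and 7 below, with a median of -0.13. Foxq1 had 7.53 ± 3.73 and 2.87 ± 1.06 FPKM (limma adjusted p = 0.881), and Klf8 had 1.29 ± 0.247 and 2.98 ± 0.674 FPKM (limma adjusted p = 0.875), both without overlap. The E proteins Tcf3, Tcf4 and Tcf12, dimer partners of Twist and chosen after their values were seen, were at 25.9 FPKM or more in every tumor. The 4 Id genes, inhibitors of such dimers, had a median of 0.0046, 2 above and 2 below.

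Of the 18 cofactors and stability regulators of Snail and Zeb, 13 were above 0 and 5 below, with a median of 0.12. Ajuba, a LIM protein that binds Snail factors as a corepressor, had 13.1 ± 1.56 and 24.0 ± 2.57 FPKM (SD, n = 3) without overlap, and differed by 0.83 on the log2 scale (SE 0.23, limma, unadjusted p = 0.0074, adjusted p = 0.633). Fbxl14, a ubiquitin ligase subunit that targets Snail proteins for degradation, had 13.9 ± 2.85 and 19.9 ± 2.12 FPKM (limma adjusted p = 0.997). The kinase gene Lats2 had 14.5 ± 1.86 and 18.7 ± 2.49 FPKM (limma adjusted p = 0.997), also without overlap.

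Epithelial genes that EMT factors repress were detected, and no call was made among them. Of 23 listed, 22 were in the table and 17 tested, 4 above 0 and 13 below, with a median of -0.23. The median was -0.045 without SS18-SSX2 tumor 1, -0.60 without SS18-SSX2 tumor 2 and -0.67 at a minimum mean of 5 FPKM. Epcam, an epithelial adhesion molecule, had 104, 12.4 and 15.1 FPKM with SS18-SSX1 (tumors 1, 2 and 3) and 7.96, 8.81 and 10.5 FPKM with SS18-SSX2 (limma adjusted p = 0.997). The genotypes did not overlap, and SS18-SSX1 tumor 1 was far above the rest. Of the other tested genes of the list, Esrp1, Tjp3, St14 and Patj were also highest in that tumor. The rest were not, among them Krt8, Krt18, Krt19 and Dsp. These genes were named after their values were seen. Cldn7, a tight junction gene, had means of 2.41 ± 0.261 and 0.861 ± 0.619 FPKM (limma adjusted p = 0.843; SD, n = 3). Cdh1, the E-cadherin gene and chosen after its values were seen, had 1.05 to 5.76 FPKM, with the extremes in SS18-SSX2 tumors 3 and 2.

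Mesenchymal genes split. Of 29 listed, 28 were tested, 17 above 0 and 11 below, with a median of 0.05. Leaving out SS18-SSX1 tumor 3 gave a median of -0.080, leaving out SS18-SSX1 tumor 2 gave 0.30, and leaving out tumor 2 of both genotypes gave 0.44. Col3a1, a fibrillar collagen, had 58.3, 333 and 33.1 FPKM with SS18-SSX1 (tumors 1, 2 and 3) and 721, 368 and 974 FPKM with SS18-SSX2, without overlap (log2 fold change 2.86, SE 0.84, limma adjusted p = 0.677). The gelatinase gene Mmp2 had 319 ± 35.5 and 156 ± 19.5 FPKM (SD, n = 3), also without overlap and in the other direction (limma adjusted p = 0.810). Lox, a collagen crosslinking enzyme, had 1.90 ± 2.16 and 9.77 ± 7.72 FPKM (limma adjusted p = 0.810), and Col5a2 38.7 ± 41.1 and 119 ± 47.6 FPKM (limma adjusted p = 0.830).

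Among the tested partners of the 2 mesenchymal products, the genotypes overlapped for every fibronectin receptor and every intermediate filament or linker gene. The 6 tested fibronectin receptor genes had a median of 0.13, 5 above 0 and 1 below. Itgb1, the beta chain of the main fibronectin integrin, had means of 171 ± 50.6 and 166 ± 54.7 FPKM (limma adjusted p = 0.997; SD, n = 3). Itgb3, a receptor chain too low to be tested and chosen after its values were seen, did not overlap, at 0.242 to 0.406 FPKM with SS18-SSX1 and 0.595 to 0.932 FPKM with SS18-SSX2. The 7 tested intermediate filament and linker genes had a median of -0.15, 3 above 0 and 4 below, and Nes, or nestin, which assembles with vimentin, had 10.2 ± 8.31 and 15.4 ± 5.78 FPKM (limma adjusted p = 0.997). The median of this list had no stable sign, at -0.65 without SS18-SSX2 tumor 2, 0.44 without SS18-SSX2 tumor 1, 0.42 without SS18-SSX1 tumor 2 and 0.44 with the muscle covariate. Of 8 EMT splicing regulators 1 was above 0 and 7 below, with a median of -0.13. Mbnl1 had 54.5 ± 17.2 and 36.3 ± 11.95 FPKM (limma adjusted p = 0.997).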

How the data were processed

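The authors deposited 1 table of FPKM values with 1 column per tumor, per the file headers. Per the submitters' processing notes, which state no roles, the tool was Novoalign 2.08.03 and the build mm10. Not given in the sources used here were the counter, gene models, strand handling and gene filter. Per the labels' protocols, RNA from snap frozen tumors went into Ribo-Zero libraries. Columns were matched to tumors by description, and symbols and positions came from GENCODE M21 (GRCm38), found for 17029 of 17312 genes. Reads were recovered from the steps of low FPKM in 1475 single-exon genes, with 75.3% to 77.9% of low values whole (tolerance 0.02 reads). Whole reads resulted for 99.9% of genes, 8737 with their annotated exon length and 8558 with the smallest length that did, which can be wrong. For 9 of the 10 genes, all but Snai1, it was the smallest length.

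Genes with at least 1 FPKM in at least 3 tumors (13873) were tested as log2(FPKM + 1) in limma 3.58.1 (R 4.3.3) with a mean-variance trend, two-sided, Benjamini-Hochberg over all tested genes, with all 6 tumors and no covariates, and tested on simulated data. The genes and lists were chosen with earlier results of these data known. Named were the 10 genes, up to 4 genes per pathway list with the smallest p, the marker with the highest mean, and for genes with an SD of at least 0.5 the 3 nearest profiles (1 of those of Fn1 is not reported here, and of Twist2 only the nearest is given). Alternatives were pseudocounts of 0.1 and 0.5, no filter, a mean of at least 5 FPKM, quantile and upper quartile scaling, TPM, a replicate block, a muscle covariate, voom on reads, no trend, and leaving out tumors.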

Additional observations from a re-analysis of the deposited data

How the results depend on the processing

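No alternative called any of the 10 genes, in 19 settings at the adjusted p threshold. Voom with annotated lengths covered Snai1 alone of the 10, and the minimum mean of 5 FPKM left out Snai1 and Zeb2. The count of 9 called genes became 5 with a pseudocount of 0.1, 20 without tumor 2 of both genotypes, 0 with voom on annotated lengths (6845 genes tested, 370 with an unadjusted p under 0.05, and 6 with voom on lengths of any source, a setting chosen after seeing the data) and 3 to 11 without single tumors, the 3 being without SS18-SSX2 tumor 3. Tumors with the same number need not be related, as the labels name no shared animal. The column headers do begin with A for tumor 2 and with B for tumor 3 of both genotypes, and what the letters stand for is not said. Deviations of same-numbered tumors from the genotype means correlated at 0.38, 0.31 and -0.28 for numbers 1, 2 and 3. The numbers were not taken as pairs in the main test, and a shared batch was not tested. With the replicate block 4 genes were called. SS18-SSX2 tumor 3 correlated best with SS18-SSX1 tumor 1 (0.23).

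Direction held in every setting run for Snai1, Snai2, Twist1, Twist2, Zeb2 and Vim. With the muscle covariate Zeb1 turned to -0.0058 and Prrx1 to 0.099. Without tumor 2 of both genotypes Prrx1 was 0.058 and Fn1 0.46. Leaving out single tumors gave -0.15 to 0.45 for Zeb1, -0.28 to 0.23 for Prrx1, -0.89 to 1.09 for Prrx2 and -1.44 to 0.58 for Fn1. Medians of lists moved by more than the spread between tumors for fibronectin receptors, to 0.21 with TPM, 0.26 without tumor 2 of both genotypes, 0.23 with voom on annotated lengths and 0.051 to 0.24 without single tumors. They also moved for other EMT transcription factors, to 0.056 without tumor 2 of both genotypes and 0.080 with voom on annotated lengths. For the TGF-beta genes the median moved to -0.074 without SS18-SSX1 tumor 3. Without single tumors the TGF-beta median otherwise reached 0.12, within that spread. The other medians moved by less than the spread between tumors, but some changed sign or size without single tumors, over -0.65 to 0.44 for intermediate filament and linker genes, -0.60 to -0.045 for epithelial genes, -0.080 to 0.30 for mesenchymal genes, -0.23 to 0.30 for Id genes and -0.32 to -0.036 for splicing regulators. The cause was not tested. Read counts were lowest for Snai1, at 3 to 95 reads per tumor.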
